A study of Saccharomyces cerevisiae with 6 samples.

Results

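The proteasome genes of budding yeast were followed in cells whose histone H3 carries arginine in place of lysines 4 and 79, called K4,79R, and in wild-type cells. The genes were chosen by name: every RPN, RPT, PRE and PUP gene with the number range of the family, together with SCL1, UMP1, ECM29 and BLM10. This gave 37 genes, read by 50 probe sets, among 5380 genes tested. They comprise the 14 genes of the core particle, 18 of the regulatory particle, and 5 others that the naming takes in: RPN4, RPN14, UMP1, ECM29 and BLM10. The rule used names alone, but it was set with earlier results of these data known. The study measured mRNA in total RNA on Affymetrix arrays, with 3 K4,79R and 3 wild-type samples. Both groups were grown in YPD, a rich glucose medium, and harvested in mid-logarithmic growth. The labels give neither the parent strain nor how the H3 genes were replaced, nor do they state separate cultures for the replicates. The p-values therefore reflect the variation among these 6 samples alone, and that variation may be technical.

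The proteasome is the protease that degrades proteins tagged with ubiquitin. Its core particle is a barrel of stacked rings, the outer ones of alpha subunits, which form the gate, and the inner ones of beta subunits, which hold the cleavage sites. The regulatory particle caps the barrel. Its base, built around a ring of ATPases, unfolds substrates and threads them into the core, and its lid removes ubiquitin chains. Each subunit gene of the complex is expressed from its own promoter, and in yeast most of them are activated by the transcription factor Rpn4, which the proteasome itself degrades. The methyl groups that Set1 places on lysine 4 and Dot1 on lysine 79 of H3 mark transcribed chromatin, and arginine cannot carry them.

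The values are MAS5 signals on a linear scale, used as the authors scaled them. A log2 change is the K4,79R mean minus the wild-type mean of log2(signal + 3.605), given with its standard error (SE) from limma, a linear model fitted over all 5380 genes. On this scale the change of a gene with low signal is understated. A gene was called when its p, adjusted over all genes by Benjamini-Hochberg, was under 0.05. The median signal of an array was 31.8 to 42.9 in K4,79R and 34.1 to 36.8 in wild type. K4,79R array 1 stood apart in its group: it correlated with arrays 2 and 3 at 0.969 and 0.972, while those correlated with each other at 0.982 (Pearson, across probe sets). Its ratio of 3′ to 5′ signal for ACT1 was 1.00, against 1.498 to 1.64 on the other 5 arrays. The same ratio for SPT15 did not single it out: it was 5.71 on K4,79R array 1, 2.79 and 3.35 on K4,79R arrays 2 and 3, and 5.02 to 6.15 on the wild-type arrays. Results are therefore also given without that array. Probe sets for histone H3 are listed under both of its genes and do not check the labels.

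None of the 37 proteasome genes was called, in either direction, while 4.26% of all genes were called (2.81% higher and 1.45% lower in K4,79R). At an unadjusted p under 0.05 there were 5 proteasome genes, 4 higher and 1 lower, against 22.2% of all genes at that level (13.8% higher, 8.44% lower). The 4 were RPN5, RPT2, RPN4 and PRE3, and the lower one was RPN14. Their changes were 0.79, 0.50, 0.37, 0.29 and -0.45 on the log2 scale, with adjusted p-values of 0.129, 0.0772, 0.222, 0.168 and 0.130 in limma. The median change over the 37 genes was 0.065, beside 0.039 over all genes, and the median absolute change was 0.17, beside 0.21. Of the 37, 23 had a change above 0, a share of 62.2% beside 54.9% of all genes. These directions depended on scaling: 18 of the 37 were above 0 with quantile normalization (median -0.0021), 17 with a common median for all arrays (median -0.036) and 19 with the authors' constants on the mutant arrays divided out (median 0.014). Those shares were 48.6%, 45.9% and 51.4%, beside 46.2%, 42.4% and 48.8% of all genes. The median of all genes moved as well, to -0.027, -0.056 and -0.0094.

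How large a change the arrays could still hide is given by the 95% interval of each log2 change. For 34 of the 37 genes the whole interval lay within 2-fold in either direction, which held for 88.2% of all genes. The exceptions were SCL1, whose interval ran from -0.55 to 1.07, RPN5, from 0.19 to 1.38, and UMP1, from -1.05 to 0.70. The narrowest interval among the core genes was that of the alpha-ring gene PRE8, from -0.22 to 0.23.

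**Figure D1:**
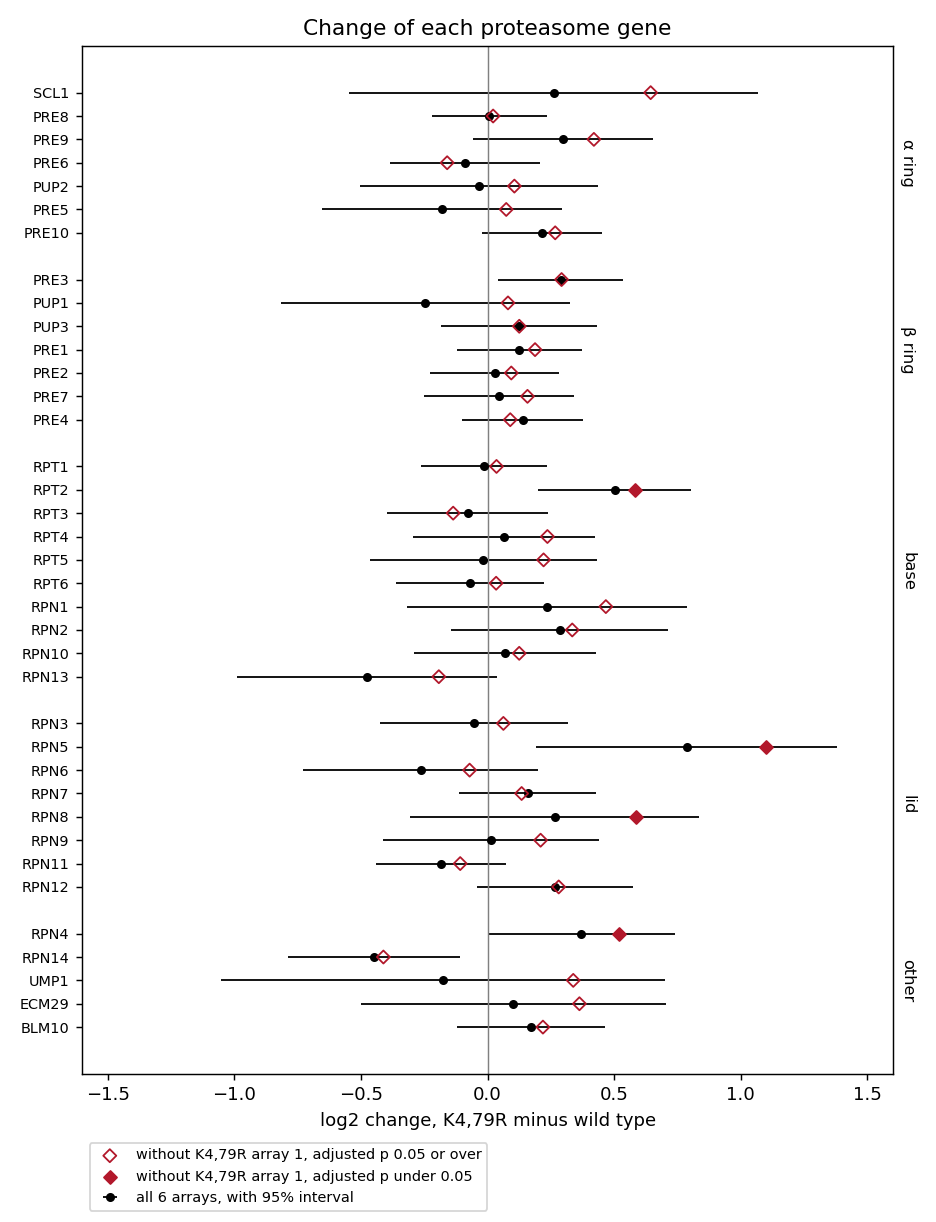
Log2 change of each proteasome gene, K4,79R minus wild type (horizontal axis), with genes grouped as alpha ring, beta ring, base, lid and other. Black points with bars are the fit of all 6 arrays and its 95% interval, and diamonds the fit without K4,79R array 1, filled where adjusted p was under 0.05. No gene passed that threshold with all 6 arrays, and RPT2, RPN5, RPN8 and RPN4 passed it without K4,79R array 1.

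Among the 7 alpha-ring genes, changes ranged from -0.18 to 0.30 with a median of 0.007, and none had an unadjusted p under 0.05. PRE9 (YGR135W), the alpha subunit gene that yeast can live without, had the most positive change. It read 219, 279 and 287 on K4,79R arrays 1, 2 and 3, against 237, 222 and 177 on the wild-type arrays, a log2 change of 0.30 ± 0.15 (SE, limma adjusted p = 0.301). The groups overlapped through K4,79R array 1. PRE5 (YMR314W) had the most negative change. Its signals were 290.4, 503 and 489 in K4,79R and 439.7, 465 and 512 in wild type (-0.18 ± 0.21, adjusted p = 0.641). K4,79R array 1 was low and the other 2 mutant arrays lay inside the wild-type range. SCL1 (YGL011C), singled out after its values were seen, had the largest SE of the core genes, 0.35, at 183, 453 and 373 in K4,79R and 379, 244 and 194 in wild type.

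Of the 7 beta-ring genes, 6 had a change above 0, with a median of 0.12 and a range from -0.25 to 0.29, beside 54.9% of all genes above 0. With quantile normalization, a common median or the constants divided out, 4 of the 7 were above 0 (57.1%), with medians of 0.064, 0.023 and 0.073. Of all genes 46.2%, 42.4% and 48.8% were then above 0, with medians of -0.027, -0.056 and -0.0094. The ring holds the proteolytic subunits, encoded by PRE3 (caspase-like activity), PUP1 (trypsin-like activity) and PRE2 (chymotrypsin-like activity). PRE3 (YJL001W) read 403, 401 and 412 in K4,79R against 298, 340.5 and 359 in wild type. All 3 mutant values lay above the wild-type values, and the log2 change was 0.29 ± 0.11 (SE, unadjusted p = 0.0272 in limma, adjusted p = 0.168). PUP1 (YOR157C) read 313, 595 and 647 in K4,79R and 577, 615.5 and 568 in wild type. Its change of -0.25 ± 0.25 rested on K4,79R array 1, and the other 2 mutant arrays lay within or above the wild-type range (0.081 without array 1). PRE2 (YPR103W) averaged 726 ± 61.2 in K4,79R and 711 ± 42.8 in wild type (SD, n = 3 each). The remaining 4, PUP3, PRE1, PRE7 and PRE4, had changes between 0.046 and 0.14.

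The 10 base genes had changes between -0.48 and 0.50, with a median of 0.025. The extremes were an ATPase and a ubiquitin receptor. RPT2 (YDL007W), whose ATPase has a part in opening the gate of the core, read 145, 174 and 170.1 in K4,79R, against 109, 104.5 and 129 in wild type. The groups did not overlap, and the log2 change of 0.50 ± 0.13 (SE) had the lowest p of all 37 genes (unadjusted p = 0.00491, adjusted p = 0.0772 in limma). The other 5 ATPase genes, RPT1, RPT3, RPT4, RPT5 and RPT6, lay between -0.078 and 0.065, with intervals that reached no further than -0.46 and 0.43. RPN13 (YLR421C), a ubiquitin receptor, read 239.8, 436 and 435 in K4,79R and 475, 478 and 545 in wild type. All 3 mutant arrays were below the wild-type arrays, array 1 far more than the others (-0.48 ± 0.22, adjusted p = 0.256), and without array 1 the change was -0.19. The scaffold genes RPN1 and RPN2 were at 0.23 ± 0.24 and 0.28 ± 0.19, and RPN10, which encodes another ubiquitin receptor, at 0.070 ± 0.16.

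**Figure D2:**
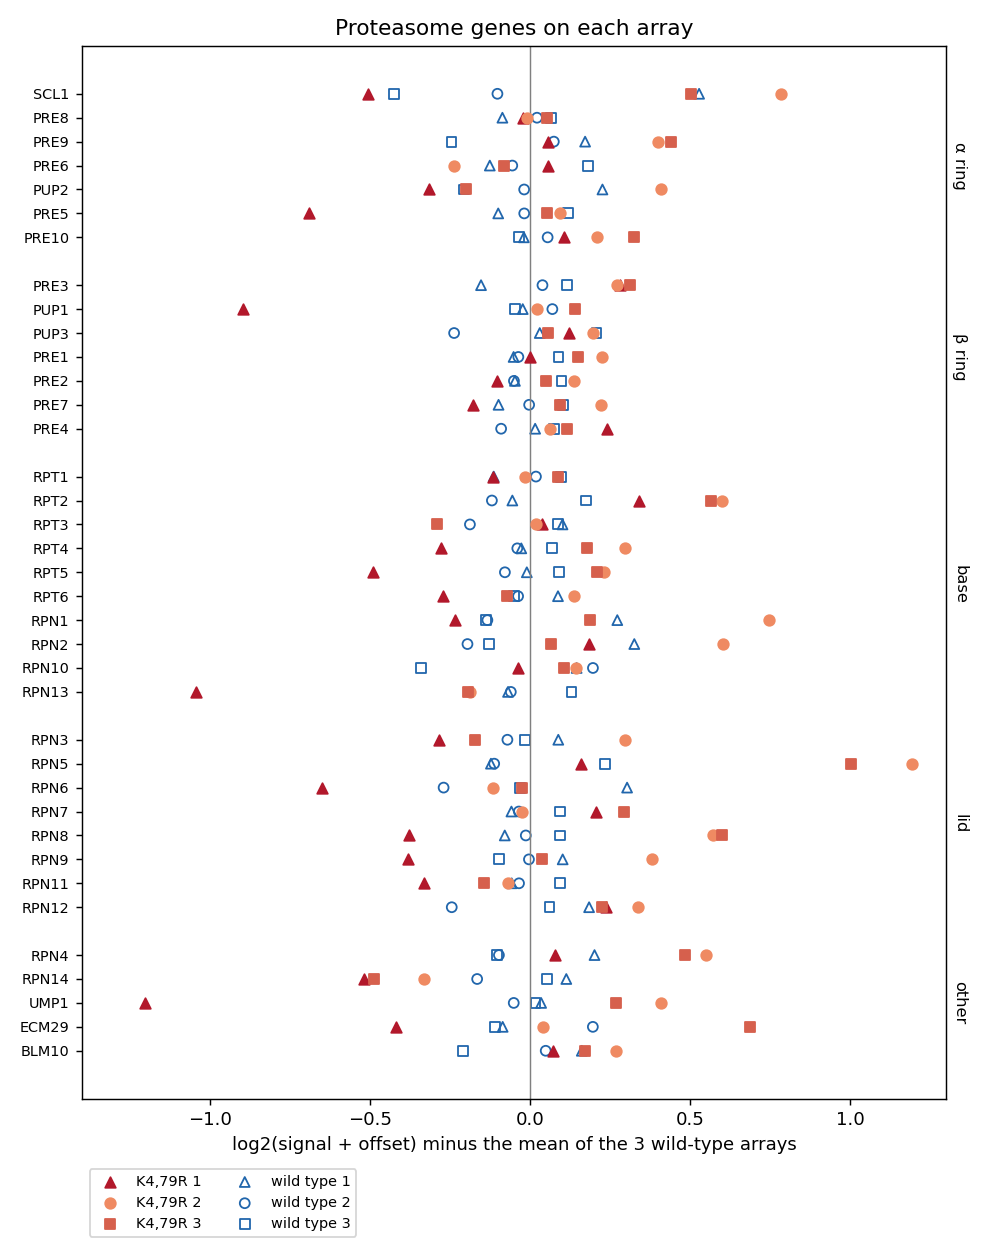
Signal of each proteasome gene on each array, as log2(signal + offset) minus the mean of the 3 wild-type arrays (horizontal axis). Filled symbols are K4,79R arrays and open symbols wild-type arrays. K4,79R array 1 (triangles) was the lowest of the 6 arrays for 20 of the 37 genes, far below the rest for UMP1, RPN13, PUP1 and PRE5.

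The 8 lid genes had the widest range of changes, from -0.26 to 0.79, with a median of 0.086. RPN5 (YDL147W), a structural lid subunit, had the largest change of all 37 genes. It read 116, 241 and 212 in K4,79R against 94.9, 95.6 and 122.6 in wild type. K4,79R arrays 2 and 3 stood well above every wild-type array while array 1 lay inside their range, and the change of 0.79 ± 0.26 (SE) was not called (unadjusted p = 0.0157, adjusted p = 0.129 in limma). With all arrays set to a common median it was 0.69 with an adjusted p of 0.0476, in a fit that called 6.65% of all genes (2.9% higher, 3.75% lower). Across all 17 alternatives run, its change lay between 0.58 and 1.10 and the adjusted p between 0.00423 and 0.332. RPN6 (YDL097C) had the most negative change of the lid, at 249.5, 364 and 387 in K4,79R and 487, 326 and 385 in wild type (-0.26 ± 0.20, adjusted p = 0.482), with overlapping groups. That change was -0.071 without K4,79R array 1, -0.11 without wild-type array 1 and -0.40 without wild-type array 2. RPN11 (YFR004W), the lid's deubiquitinating enzyme, read 269.9, 325 and 308 in K4,79R against 328, 333 and 364 in wild type, without overlap and with a change of -0.18 ± 0.11 (adjusted p = 0.376). RPN12 did not overlap either, with all mutant values higher (0.27 ± 0.13, adjusted p = 0.287).

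The groups did not overlap for 7 of the 37 genes. PRE10, PRE3, RPT2 and RPN12 had all mutant values above the wild-type values, and RPN13, RPN11 and RPN14 had all of them below. Over all genes 16.7% were separated upward and 12.2% downward, so the proteasome genes, at 7 of 37 or 18.9%, lay under the 28.8% of all genes.

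The 5 genes outside both particles include the regulator. RPN4 (YDL020C), the transcription factor gene, read 130.3, 182 and 174 in K4,79R and 142, 115 and 114.5 in wild type. K4,79R arrays 2 and 3 were above all wild-type arrays and array 1 was not, giving 0.37 ± 0.16 (SE, unadjusted p = 0.0490, adjusted p = 0.222 in limma). RPN14 (YGL004C) encodes a chaperone for assembly of the base. It read 30.9, 35.7 and 31.6 in K4,79R against 49.9, 40.5 and 47.7 in wild type, low on all 3 mutant arrays. Its change of -0.45 ± 0.15 was close to the same without K4,79R array 1, at -0.41, and ranged from -0.54 to -0.35 over the 17 alternatives, in none of which it was called (adjusted p between 0.0538 and 0.366).

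UMP1 (YBR173C) encodes the chaperone that matures the core particle and is its first substrate. Its signal was 28.0, 93.0 and 84.2 in K4,79R, against 71.0, 66.7 and 70.1 in wild type. K4,79R array 1 was below, and arrays 2 and 3 above, every wild-type array, so the change of -0.18 ± 0.38 became 0.34 when array 1 was left out (adjusted p = 0.0573). BLM10 (YFL007W), which encodes an alternative cap of the core, read 246, 282 and 264 in K4,79R and 262, 242 and 202 in wild type (0.17 ± 0.13, adjusted p = 0.474). ECM29 (YHL030W), which encodes a large adaptor holding core and regulatory particle together, read 53.4, 74.7 and 119 in K4,79R and 68.2, 83.7 and 67.0 in wild type. Its change of 0.10 ± 0.26 was -0.19 without K4,79R array 3.

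K4,79R array 1 decided the direction of several of these values. It was the lowest of the 3 mutant arrays for 29 of the 37 genes, and for 3475 of all 5380 genes. It was the lowest of all 6 arrays for 20 of the 37 (54.1%), compared with 38.6% of all genes. On the log2 scale it lay a median of 0.31 below the mean of K4,79R arrays 2 and 3 for the proteasome genes (difference -0.31), and the same difference was -0.23 over all genes. The gap was beyond -0.5 for 13 proteasome genes (35.1%, beside 26.5% of all genes). It was widest for UMP1 at -1.54, SCL1 at -1.15, PUP1 at -0.98, RPN8 at -0.96 and RPN5 at -0.94. These gaps were taken on values as deposited, which carry the authors' constants. The constant was 0.922 for K4,79R array 1, and 1.09 and 1.11 for arrays 2 and 3. The parts of this scaling and of RNA quality in these values were not tested, and the 3′ to 5′ ratios of ACT1 and SPT15 given above set different arrays apart.

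Without K4,79R array 1, 4 of the 37 genes were called, all higher: RPT2 at 0.58 (adjusted p = 0.0143), RPN5 at 1.10 (adjusted p = 0.00423), RPN8 at 0.59 (adjusted p = 0.00775) and RPN4 at 0.52 (adjusted p = 0.0240). That fit of 2 against 3 arrays, on values as deposited, called 20.9% of all genes (16.1% higher, 4.83% lower). The 10.8% of proteasome genes is thus a smaller share than the background. The median over all genes in that fit was 0.12 and that of the 37 genes 0.16. RPN8 (YOR261C), which encodes the partner of Rpn11 and is named for this call, read 120.2, 236 and 240.1 in K4,79R against 149, 156 and 168 in wild type. Arrays 2 and 3 were above the wild-type range and array 1 below it, and with all arrays the change was 0.26 ± 0.25.

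Core and regulatory particle did not part from each other by more than the arrays of a group differed. The median log2 change was 0.085 over the 14 core genes and 0.039 over the 18 regulatory genes, a difference of 0.046. None of either was called, and 10 of the 14 (71.4%) and 10 of the 18 (55.6%) had a change above 0, beside 54.9% of all genes. With quantile normalization, a common median and the constants divided out, 7 of the 14 core genes (50%) were above 0 each time, and 8, 7 and 9 of the 18 regulatory genes (44.4%, 38.9% and 50%). The share of all genes above 0 was then 46.2%, 42.4% and 48.8%. Relative to the wild-type mean of each gene, the core median was -0.011, 0.20 and 0.11 on K4,79R arrays 1, 2 and 3, and -0.035, -0.019 and 0.082 on the wild-type arrays. The regulatory median was -0.25, 0.26 and 0.096 on the K4,79R arrays and 0.038, -0.066 and 0.077 on the wild-type arrays. The core stood above the regulatory particle by 0.24 on K4,79R array 1, below it by 0.061 on array 2 (difference -0.061) and level with it on array 3 (0.0087). Between replicate arrays this difference had an SD of 0.12, pooled over both groups.

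**Figure D3:**
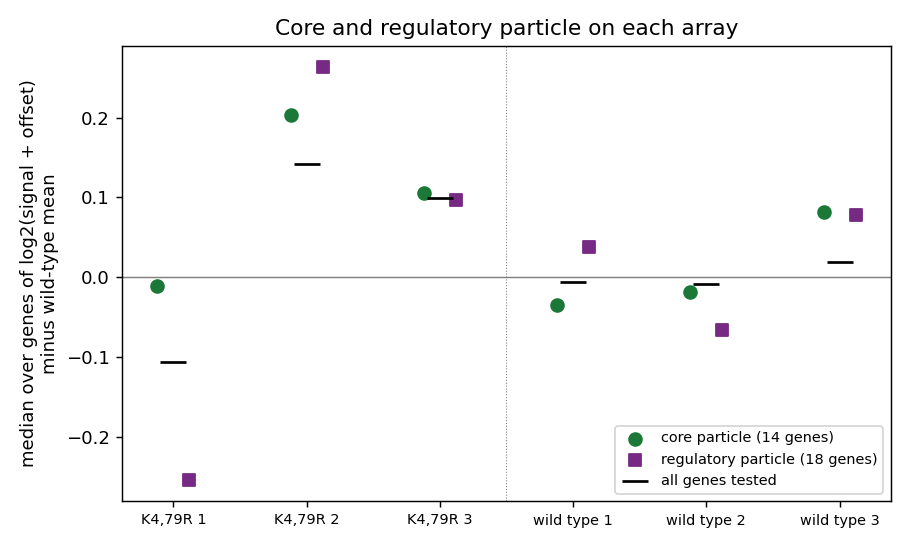
Median over genes of log2(signal + offset) minus the wild-type mean, for the core particle, the regulatory particle and all genes tested, on each K4,79R array (left) and wild-type array (right). The regulatory median ran from -0.25 to 0.26 over the K4,79R arrays, and the core median from -0.011 to 0.20.

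The sign of both medians depended on how the arrays were scaled. The core median was 0.085 as deposited, 0.034 with the authors' constants on the mutant arrays divided out, 0.027 with quantile normalization and -0.016 with a common median. The regulatory median was 0.039, -0.012, -0.017 and -0.062 under the same scalings. The median of all genes was 0.039, -0.0094, -0.027 and -0.056. Set against it, the core stood 0.040 to 0.054 higher in all 4 scalings. The regulatory particle lay between -0.0053 and 0.010 of it. Without wild-type array 2 the core lay at -0.0045 of all genes. Without K4,79R array 1 the core stood level with all genes (0.00046) and the regulatory particle 0.057 above them. The order of the particles was thus reversed without that array, at -0.056 for core minus regulatory.

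With all arrays kept, variation between replicates was larger in the mutant for most proteasome genes, as it was for all genes. The median SD of log2 signal was 0.21 over the K4,79R arrays and 0.11 over the wild-type arrays. Of the 37 genes, 25 had the larger SD in K4,79R (67.6%, beside 69.8% of all genes). This excess was not seen without the K4,79R array that stood apart. The median SD in K4,79R was then 0.080 for the proteasome genes, below the wild-type 0.112. For all genes it was 0.103, below the wild-type 0.125. These mutant SDs rest on fewer arrays than the wild-type SDs, and the difference was not tested.

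Most members (33) were read by 1 probe set, and 4 by several: BLM10, ECM29, PRE3 and RPT5. Of the 50 probe sets 46 passed the filter on low signal. All 3 probe sets of PRE3 were higher in K4,79R, with changes of 0.29, 0.49 and 0.92 from the brightest to the dimmest, and no probe set passed when all 7420 were fitted (adjusted p between 0.165 and 0.214). The dimmest read 26.8, 60.3 and 73.7 in K4,79R and 23.1, 22.5 and 28.1 in wild type. Both weaker PRE3 probe sets carry name suffixes that mark shared probes and may read other transcripts. For RPT5 the 3 probe sets above the filter gave -0.017, 0.013 and 0.46. The pair for BLM10 gave 0.17 and 0.16. Those of ECM29 ranged from -0.37 to 0.59. The brightest of ECM29, used above, carries a suffix for shared probes. The only one of its probe sets above the filter without such a suffix read 29.7, 65.5 and 43.8 in K4,79R against 29.3, 28.6 and 26.9 in wild type (0.59 ± 0.25, adjusted p = 0.237).

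**Figure D4:**
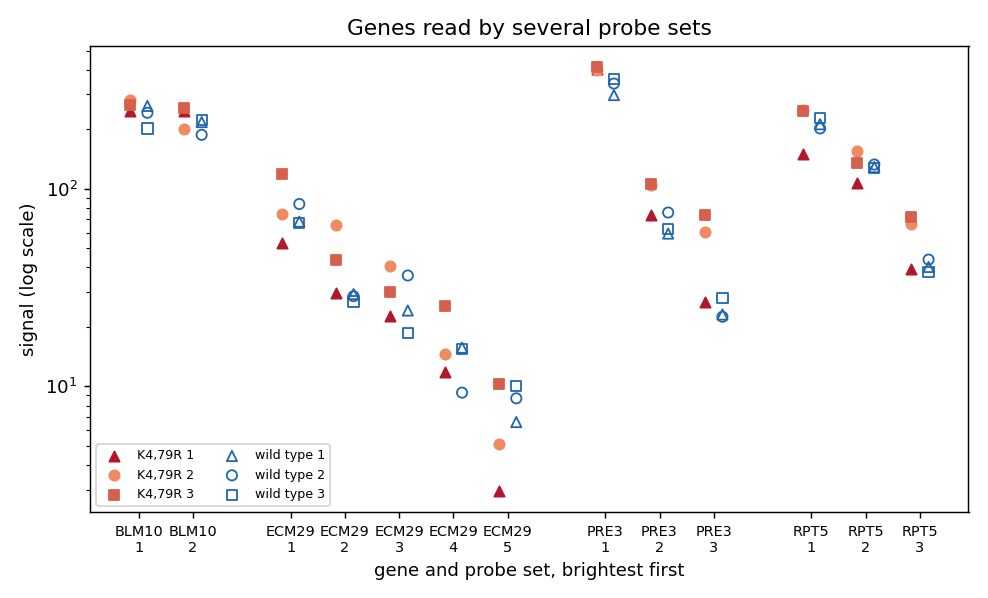
Signal (log scale) of every probe set above the filter for the 4 proteasome genes read by several, brightest first within a gene. Filled symbols are K4,79R arrays and open symbols wild-type arrays. The 3 PRE3 probe sets were all higher in K4,79R, and those of ECM29 had changes from -0.37 to 0.59 on the log2 scale.

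In the order of genes along the chromosomes, 2 pairs of members lie with 1 gene between them: PRE4 and RPN12 with RET2 between, and RPT4 and RPN8 with GCD1 between. The changes of PRE4 and RPN12 were 0.14 and 0.27, and those of RPT4 and RPN8 0.065 and 0.26. None was called.

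The genes that surround the proteasome in the pathway were taken from 6 lists that together name 89 genes, of which 85 were tested. Only 2 were called, both higher in K4,79R (2.35%, beside 4.26% of all genes). The median change was 0.11, beside 0.039 of all genes. With quantile normalization, a common median and the constants divided out it was 0.060, 0.012 and 0.063. The median of all genes was then -0.027, -0.056 and -0.0094. At an unadjusted p under 0.05 there were 25 (29.4%, beside 22.2% of all genes). Among 15 other assembly chaperones and associated proteins, TMA17 (YDL110C) rose. It encodes a chaperone for the assembly of the ATPase ring of the base and is known to be induced by stress. Its signals were 167, 141.0 and 141.1 in K4,79R against 99.3, 97.0 and 107.5 in wild type. All mutant arrays lay above all wild-type arrays (0.54 ± 0.12 SE, adjusted p = 0.0472 in limma). This call was lost in 10 of the 17 alternatives, among them quantile normalization (adjusted p = 0.0755) and leaving out any array other than K4,79R array 1, with no change of direction. The largest change on that list was that of SPG5, which encodes a regulator of the proteasome in stationary phase, at 0.61 ± 0.27 (adjusted p = 0.234).

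Of 17 tested deubiquitinase genes UBP15 (YMR304W) rose, at 97.3, 109.8 and 118 in K4,79R against 77.0, 65.6 and 63.6 in wild type. The groups did not overlap (0.63 ± 0.14 SE, adjusted p = 0.0447), and 7 of the 17 alternatives ended the call, including each fit that left out an array other than K4,79R array 1. The list had a median of -0.058. Neither the 11 tested shuttle and Cdc48 factors (median 0.077) nor the 23 ubiquitin ligases (median 0.13) held a called gene. Of them, 4 and 5 had an unadjusted p under 0.05 (36.4% and 21.7%, beside 22.2% of all genes). With quantile normalization, a common median and the constants divided out the shuttle median was 0.060, -0.021 and 0.027. The ligase median was 0.034, 0.035 and 0.080 under the same scalings. TMC1, which encodes a zinc finger protein, was at 0.66 ± 0.21 (adjusted p = 0.121) and UBR1, the ligase gene of the N-degron pathway, at 0.59 ± 0.28 (adjusted p = 0.266). The change of UBR1 was 0.28 without wild-type array 3 and 0.81 without wild-type array 1.

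Among the 14 tested genes of ubiquitin and its activating and conjugating enzymes (median 0.14), ubiquitin itself came closest to a call. Of the 14, 6 had an unadjusted p under 0.05 (42.9%, beside 22.2% of all genes), all of them higher (beside 13.8% of all genes). With a common median there were 4 (28.6%, beside 24.2% of all genes), all higher. With quantile normalization and with the constants divided out there were 6 each time (42.9%, beside 24.2% and 24.5% of all genes), 5 higher and 1 lower. Of all genes with such a p, 533 of 1304 were higher with a common median. That number was 601 of 1300 with quantile normalization and 668 of 1320 with the constants divided out. The polyubiquitin gene UBI4 (YLL039C), induced by stress, read 194, 369 and 293 in K4,79R against 135, 145 and 148 in wild type. All mutant arrays lay above the wild-type arrays, with a change of 0.93 ± 0.21 (SE) and an adjusted p of 0.0507 in limma. That value passed the threshold in 5 of 17 alternatives. Among these were quantile normalization, at 0.90 (adjusted p = 0.0149), and the fit without K4,79R array 1, at 1.19 (adjusted p = 0.00229). Ubiquitin is also encoded in RPS31, RPL40A and RPL40B in near-identical repeats, so the UBI4 probe set may not read that gene alone. RPL40A and RPL40B had no probe set of their own.

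The 7 genes known to control RPN4, its activators PDR1, PDR3, YAP1 and HSF1 and the UBR2, MUB1 and RAD6 genes for its degradation, had a median change of 0.20 and no called member. That median was 0.14, 0.10 and 0.15 with quantile normalization, a common median and the constants divided out. YAP1 (YML007W), the oxidative stress transcription factor gene, read 56.9, 80.5 and 76.8 in K4,79R against 39.4, 40.4 and 45.2 in wild type, without overlap (0.72 ± 0.17 SE, adjusted p = 0.0524 in limma). Of the 17 alternatives, 4 brought it past the threshold. PDR1, PDR3 and HSF1 were at 0.15 ± 0.16, 0.26 ± 0.17 and 0.20 ± 0.14.

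**Figure D5:**
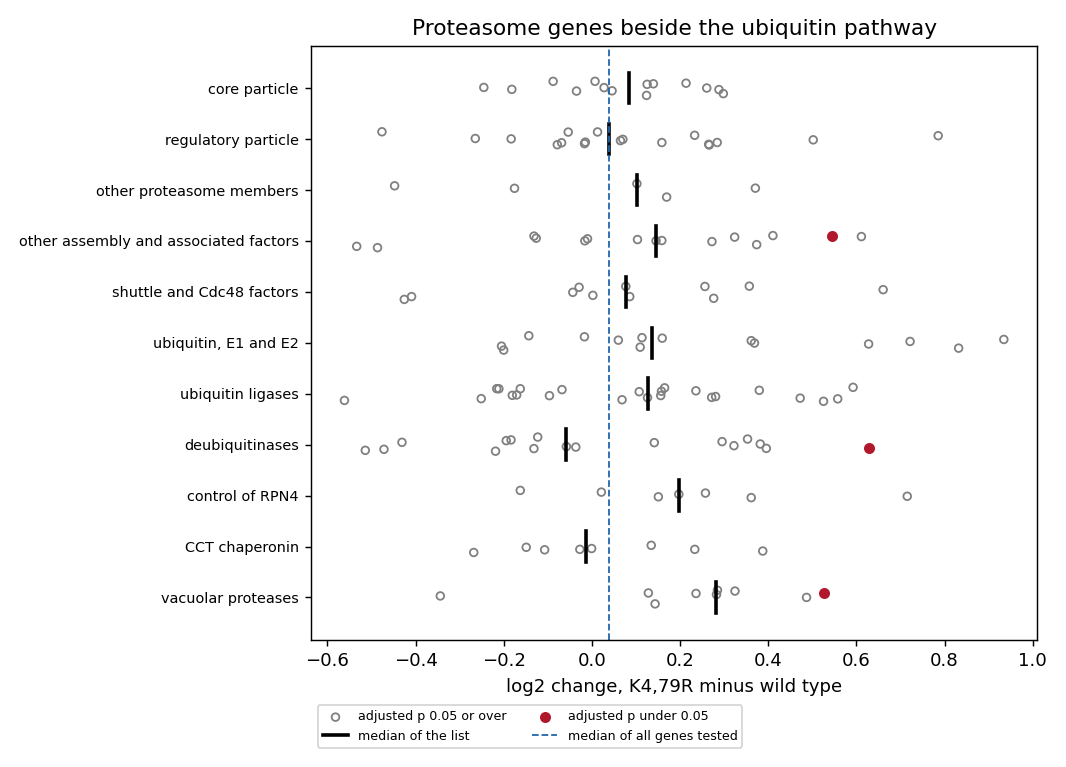
Log2 change, K4,79R minus wild type (horizontal axis), of each tested gene of the proteasome groups, the ubiquitin pathway lists and 2 comparison lists. Black bars are medians of a list, the dashed line the median of all genes, 0.039, and filled points the called genes TMA17, UBP15 and PRB1.

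For comparison, the CCT chaperonin, another large ring complex built from single-copy genes, had a median of -0.014 over 8 genes with none called. Its largest change was that of CCT4, at 0.39 ± 0.14 (adjusted p = 0.164). The 9 genes of vacuolar proteases, which degrade protein in the other main compartment for it, had a median of 0.28, beside 0.039 of all genes. At an unadjusted p under 0.05 there were 5 (55.6%, beside 22.2% of all genes), 4 of them higher. There were 4 (3 higher) with quantile normalization, and 3 (2 higher) with a common median or the constants divided out. These were 44.4%, 33.3% and 33.3% of the list, beside 24.2%, 24.2% and 24.5% of all genes. Of all genes with such a p, 601 of 1300, 533 of 1304 and 668 of 1320 were higher, in the same order. PRB1 (YEL060C), the vacuolar protease B gene, rose, at 350, 332 and 350 in K4,79R against 258, 222 and 233 in wild type (0.53 ± 0.10 SE, adjusted p = 0.0332 in limma). PRB1 was the only gene of the list called (11.1%, beside 4.26% of all genes). The call was lost in 10 of the 17 alternatives, quantile normalization (adjusted p = 0.0645) among them. Differences between these lists and the proteasome genes were not tested.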

How the data were processed

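The deposited values are MAS5 array intensity, 1 signal per probe set and array, on a linear scale, per the submitters' processing notes, which give no version. On the K4,79R arrays the authors' values step by 0.1 times a constant (0.922, 1.09 and 1.11), and the sources used here do not state its basis. Genome build and scanner files were not used here.

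Of 9335 probe sets, 60 controls were left out, and 6504 had 1 listed gene in GEO's platform annotation, all found in the RefSeq table of assembly R64. Log2(signal + 3.605) was taken, the offset being 0.1 of the median array median. Probe sets in the lowest 20% by mean signal were removed, leaving 7420, and the brightest probe set stood for a gene, giving 5380 genes. Limma 3.58.1 in R 4.3.3 (lmFit, eBayes with intensity trend, two-sided) compared K4,79R with wild type, with 4 residual degrees of freedom before moderation. The code was checked on simulated data with independent noise for each gene and no shift of a whole array. That check cannot tell how the fit handles an array that stands apart or scaling constants. With 3 arrays a group the smallest exact permutation p is 0.1, and no such test was run. The number of arrays limits the precision.

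The members and lists were chosen with earlier results of these data known, so no p is given over a list. Values on every array are given, by rule, for members with p under 0.05, for the extremes of each ring, base and lid, and for the 5 other members; SCL1, RPN8 and RPN11 were added after values were seen. Members outside the rule that are named with a change or mean alone were chosen likewise. From other lists, called genes and the largest change were named, with PDR1, PDR3 and HSF1 added. Same-numbered arrays deviated from their group means with correlations of -0.15, 0.066 and -0.018, so the numbers were not taken to pair samples. Promoter motifs and sequences were not analysed here.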

Additional observations from a re-analysis of the deposited data

How the results depend on the processing

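The counts of called genes, the medians of the gene groups and the changes of 25 proteasome genes and 12 genes of other lists were recomputed under 17 alternatives, of which 6 leave out 1 array and compare 2 arrays of a group with 3. Counts of intervals and the fit of all probe sets were not, and the SDs between replicates only without K4,79R array 1. The number of called genes was 229. It was 368 (181 higher, 187 lower) with quantile normalization, 358 (156 and 202) with a common median and 348 (183 and 165) with the constants divided out, against 151 higher and 78 lower as deposited. It was 24 with the replicate number as a block, and 22 to 1124 when an array was left out (1124, 51 and 47 without K4,79R arrays 1, 2 and 3, and 22, 23 and 65 without wild-type arrays 1, 2 and 3). Proteasome genes called numbered 0, and 1 with a common median, 0 to 4 when an array was left out, and 0 with the replicate block. The 1 was 2.70%, beside 6.65% of all genes, and the 4, without K4,79R array 1, 10.8%, beside 20.9%. The pathway lists had 2 called genes, 7 with quantile normalization, 6 with a common median, 5 with the constants divided out, 0 without the intensity trend, 0 with the replicate block and 0 to 19 when an array was left out. The 7, 6 and 5 were 8.24%, 7.06% and 5.88% of the lists, beside 6.84%, 6.65% and 6.47% of all genes. The 19, without K4,79R array 1, were 22.4%, beside 20.9% of all genes. Of all genes 3.48% were called without the intensity trend and 0.446% with the replicate block. The core median was -0.016 with a common median. Of the recomputed genes, those whose direction changed were uncalled. With an array left out, PRE5 ranged from -0.32 to 0.074, PUP1 from -0.44 to 0.081, UMP1 from -0.47 to 0.34, ECM29 from -0.19 to 0.36, SCL1 from -0.0013 to 0.64, PRE2 from -0.027 to 0.094, PRE8 from -0.036 to 0.040, RPN1 from -0.024 to 0.47, RPN10 from -0.10 to 0.17 and RPT4 from -0.051 to 0.24. With all arrays kept, a common median turned PRE2 (-0.074), PRE8 (-0.094), RPN10 (-0.031) and RPT4 (-0.036), quantile normalization PRE2 (-0.019), PRE8 (-0.061) and RPN10 (-0.0021), and dividing out the constants PRE2 (-0.023) and PRE8 (-0.044). With quantile normalization, a common median and the constants divided out, the alpha-ring median was -0.061, -0.094 and -0.044 and the base median -0.032, -0.076 and -0.026, and the lid median was -0.015 with a common median. Under the same scalings the median of all genes moved too, from 0.039 as deposited to -0.027, -0.056 and -0.0094. The cause of these shifts was not tested. Mutant arrays did not correlate best with the wild-type array of their own number. The uncalled changes of BLM10 and PRE9 were 0.064 and 0.18 without wild-type array 3, and that of SPG5 0.36 without K4,79R array 2. The 3 arrays of a group limit what small changes can be seen.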
